A study of Mus musculus with 48 samples.

Results

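The genes described here are the nuclear genes whose symbols begin with Nduf, most of which encode subunits or assembly factors of mitochondrial complex I. They were chosen by symbol alone, pseudogene rows with the suffix -ps being left out, which gave 50 of the 55487 genes in the deposited table. After the filter on low counts, 47 of the 50 were tested in RNA, 48 in ribosome footprints and 49 in the ratio of the pair of assays. Ndufa4l2 was tested neither in RNA, where no library had more than 8 counts, nor in footprints, with at most 34 counts. Ndufb11b was tested at no level, with 0 RNA counts in all 24 libraries and at most 1 footprint count. Ndufs6b, with at most 3 RNA counts, was tested in footprints and in the ratio but not in RNA. Its footprint level lay between 0.253 and 1.08 CPM, the count scaled to the size of its library. The fractional footprint counts of Ndufs6b complemented those of Ndufs6 in all 24 libraries, with Ndufs6 holding 99.5% of their sum. The division of reads between these rows is therefore uncertain. Ndufa4l2 was tested in the ratio as well, so that the 49 members tested there include genes with few counts.

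All libraries came from the murine pro-B line Ba/F3, which needs interleukin 3 to grow and had been edited with CRISPR-Cas9 to carry ribosomal protein defects. Beside WT there were 7 edited genotypes. Rps15 P131S, Rps15 H137Y and Rpl10 R98S carry amino acid changes, given on both alleles by the genotype labels, Rpl5+/-, Rpl11+/- and Rpl22+/- lack 1 allele of the named gene, and Rpl22-/- is labelled as lacking both. Each genotype had 3 clones, and each clone gave 1 poly(A) RNA-seq library and 1 library of ribosome footprints, the stretches of transcript protected from RNase digestion by a bound ribosome, so that 48 libraries were analysed. All cells grew in 10% serum with 1 ng/ml interleukin 3 and received 0.1 mg/ml cycloheximide for 1 min before harvest. The RNA-seq titles of the P131S clones name the mutation once, unlike their genotype label. Clones of 1 cell line are the replicates, so p-values measure the spread between clones. The title of the series concerns the effect of the Rps15 mutations, which are found in chronic lymphocytic leukaemia, on translation and transcription.

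Totals ranged from 13029073 to 38258559 counts in RNA and from 15598994 to 72044439 in footprints. RNA of the edited gene stood at 67.4% of WT for Rpl5 in Rpl5+/-, 64.2% for Rpl11 in Rpl11+/-, 72.2% for Rpl22 in Rpl22+/- and 66.9% in Rpl22-/-, whereas counts per gene cannot show the point mutations. Rps15 RNA was 1433 to 1455 CPM in WT, 907, 1825 and 1935 in P131S clones 24, 63 and 20, and 1829, 817 and 875 in H137Y clones 16, 6 and 2, so that clones of both Rps15 genotypes fell on either side of WT. The part of this spread in the results below was not tested. Rpl22 footprints in the 3 Rpl22-/- clones ran from 274 to 1544 CPM, the highest being clone 30, against 2350 to 2786 CPM in WT, so that the library labelled Rpl22-/- clone 30 stood closer to WT than the others did and inside the range of Rpl22+/- (1429 to 1596 CPM). The leukocyte gene Ptprc had a median of 243 CPM in RNA and the receptor genes Csf2rb and Il3ra had 639 and 27.7, while the B-lineage genes Pax5, Ebf1, Vpreb1 and Igll1 were at or near 0. Another B-lineage gene, Cd79b, had 3.34 to 9.91 CPM in RNA, and Cd79a reached 9.81 CPM in an Rpl5+/- library. Csf2rb RNA was 479 to 577 CPM in WT, 1324 to 1720 in P131S and 774 to 1403 in H137Y. Of 5 markers of other cell types, Pecam1 and Adgre1 were present and Cd3e, Epcam and Col1a1 were at or near 0 in WT. Col1a1 RNA was 0.0377 to 0.213 CPM in WT, 0 to 6.09 in P131S, 0.355 to 8.71 in H137Y and 2.6 to 8.62 in Rpl11+/-. In the other Rpl genotypes it was at most 3.28 CPM. The summed RNA level of the 5 was 266 to 305 CPM in WT, 174 to 206 in P131S and 186 to 269 in H137Y, and its part in the results below was not tested.

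Complex I takes electrons from NADH, passes them along a chain of iron-sulphur clusters to ubiquinone and pumps protons across the inner mitochondrial membrane. A set of core subunits does this chemistry: those of the peripheral arm are nuclear and those of the membrane arm are encoded in mitochondrial DNA. Accessory subunits, all nuclear, surround and stabilise both arms, and assembly factors join modules together and leave the finished complex. Ndufa4, despite its name, is now known as a subunit of cytochrome c oxidase.

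Promoter windows from RefSeq (assembly GRCm38.p6), which run from 250 bases before to 50 after each annotated start, were found for 41 of the 50 genes, with 43 windows in all. Motifs linked to regulators of respiratory genes were searched by letters on both strands: GCGCA, any base and GCGC in a row for NRF1, CCGGAAG for the ETS family, to which GABPA belongs, and AAGATGGCG for YY1. The NRF1 motif was in 10 of the 43 windows (23.3%), against 4.6% of all 32851 windows of that length. The ETS motif was in 6 (14%, against 8.86%) and the YY1 motif in 6 (14%, against 1.4%). At least 1 of the 3 was in 20 windows (46.5%), against 13.6% of all windows. A match is a description of letters and not a measured binding site. The 150 bases before the start are shown for the 5 genes on which the results below turn most, on strand + for Ndufaf4 (chr4:24897933-24898082) and Ndufaf8 (chr11:120098784-120098933) and on strand - for Ndufb4 (chr16:37654369-37654518), Ndufs5 (chr4:123718187-123718336) and Ndufb1 (chr12:101975739-101975888). Capitals mark the motif matches, which are of the NRF1 type in Ndufaf4, Ndufb4 and Ndufs5 and of the ETS type in Ndufaf8. The stretch before Ndufb1 holds none.
Ndufaf4: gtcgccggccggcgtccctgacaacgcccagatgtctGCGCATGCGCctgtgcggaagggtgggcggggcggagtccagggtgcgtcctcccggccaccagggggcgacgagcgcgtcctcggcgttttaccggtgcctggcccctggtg
Ndufaf8: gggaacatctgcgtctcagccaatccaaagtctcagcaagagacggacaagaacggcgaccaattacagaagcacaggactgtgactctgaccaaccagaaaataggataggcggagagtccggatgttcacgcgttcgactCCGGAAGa
Ndufb4: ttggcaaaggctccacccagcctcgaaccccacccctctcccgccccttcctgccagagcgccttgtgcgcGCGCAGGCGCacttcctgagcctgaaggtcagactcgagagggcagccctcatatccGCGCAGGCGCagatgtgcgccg
Ndufs5: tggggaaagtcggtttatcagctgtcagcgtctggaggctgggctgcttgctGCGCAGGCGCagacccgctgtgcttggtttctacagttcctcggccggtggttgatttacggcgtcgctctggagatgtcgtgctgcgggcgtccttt
Ndufb1: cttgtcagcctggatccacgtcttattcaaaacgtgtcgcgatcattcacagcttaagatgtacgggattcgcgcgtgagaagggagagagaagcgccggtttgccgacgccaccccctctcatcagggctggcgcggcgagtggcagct

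The first comparison set RNA of Rps15 P131S against WT. Nduf genes rose among the core subunits, accessory subunits and assembly factors. Of the 47 tested, 35 were higher and 1, Ndufv3, was lower at an adjusted p under 0.05 (edgeR quasi-likelihood test, Benjamini-Hochberg over all genes). That makes 76.6% called against 47.0% of all 12814 genes. In the upward direction the members' share was 74.5% against 23.7% of all genes. The median log2 change was 0.32 over the members and -0.01 over all genes, and the members' changes ran from -0.51 to 1.01. By clone, the median against the WT mean was 0.30 in clone 24, 0.23 in clone 63 and 0.42 in clone 20, against -0.03 to 0.05 in the WT clones. All 3 P131S clones lay above all 3 WT clones for 34 members and below for 2, against 28.3% and 29% of all genes. The number called, 36, was 29 without clone 20 and at most 37 without any other clone.

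Summed over the members, RNA counts as a share of the library size scaled by trimmed means (TMM) were 0.415% ± 0.0112 (SD, n = 3) in WT. They were 0.514% ± 0.035 in P131S and 0.406% ± 0.0225 in H137Y. On these scaled sizes the P131S clones (0.481% to 0.55%) did not overlap the WT clones (0.405% to 0.427%). The scaling factors were 1.048 to 1.061 in WT, 0.913 to 0.958 in P131S and 0.918 to 0.992 in H137Y. Shares of unscaled counts would thus be higher than given here in WT and lower in both Rps15 genotypes.

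**Figure D1:**
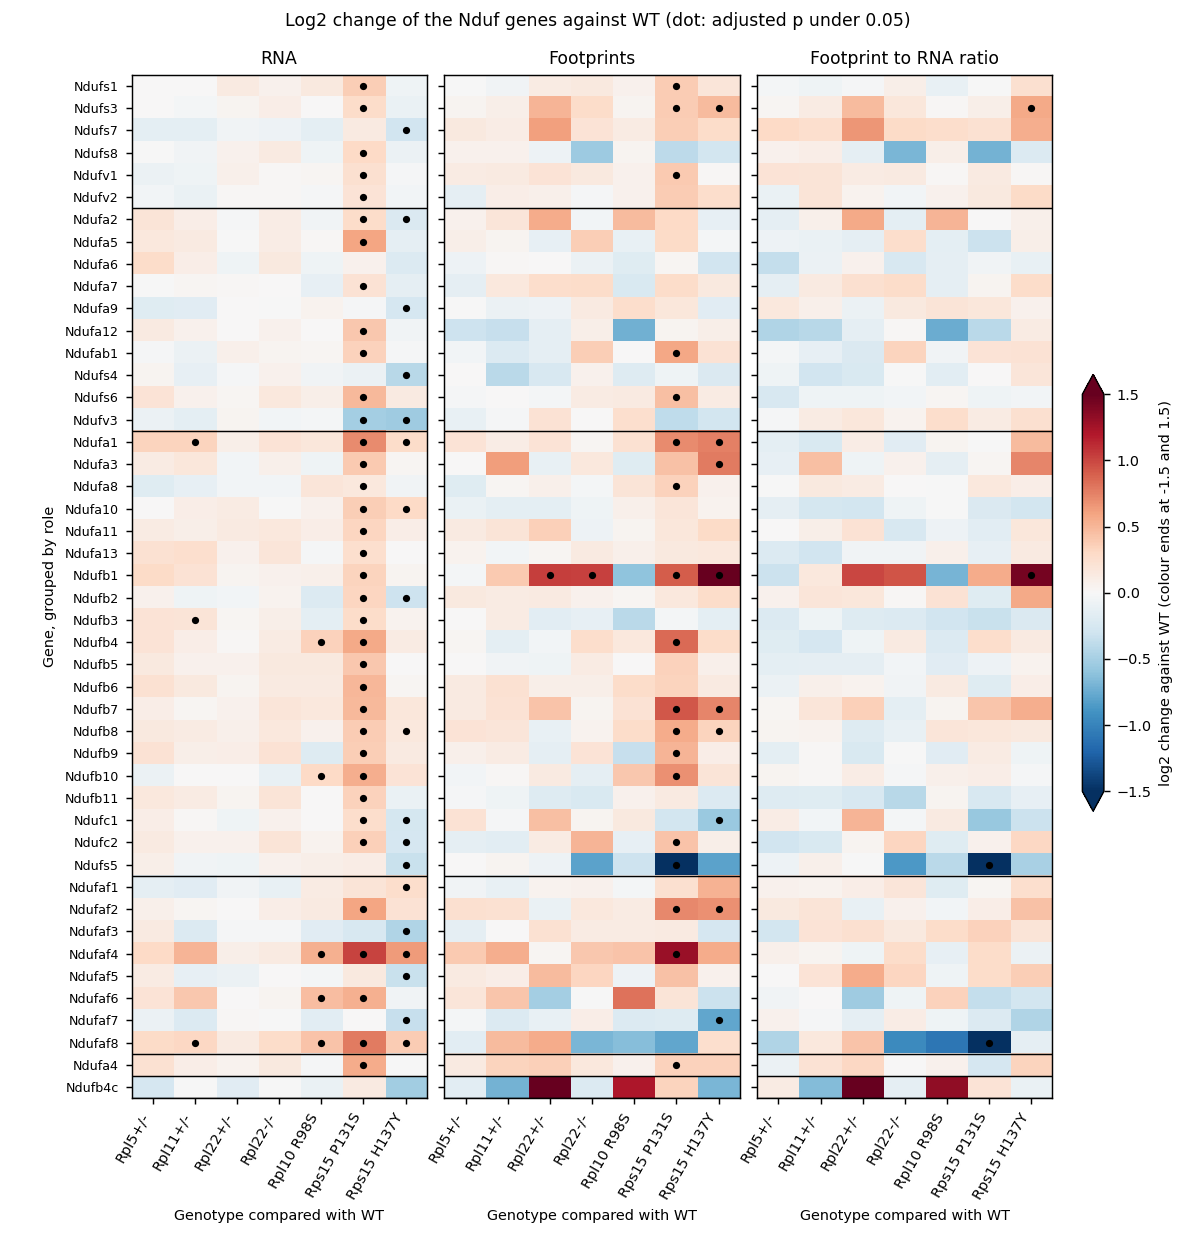
Log2 change against WT for Nduf genes tested in both assays (rows, grouped by role) in the 7 mutant genotypes (columns) in RNA, footprints and their ratio, with a dot where the adjusted p was under 0.05. The P131S column of the RNA panel carries 36 dots, 35 of them on genes above WT, and the Rpl5+/-, Rpl22+/- and Rpl22-/- columns carry none.

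In P131S RNA 5 core subunits were higher. The 3 of the NADH-oxidising module all rose. Ndufs1, which carries several iron-sulphur clusters, was 156, 157 and 181 CPM in the P131S clones and 126, 130.7 and 126 in WT (log2 change 0.37, SE 0.07, adjusted p = 0.00021). Ndufv1, which binds NADH and the flavin, was 211, 186 and 212 CPM against 168, 179 and 169 (0.24, SE 0.07, adjusted p = 0.00554). The P131S and WT clones did not overlap for either gene. Ndufv2, with 142, 136 and 152 CPM against 116, 126 and 129 (0.21, adjusted p = 0.0081), was called in the full set but not without P131S clone 20 or WT clone 3. In the module that reduces ubiquinone, Ndufs3 (88.9, 85.3 and 98.3 CPM against 72.8, 77.9 and 75.4, log2 change 0.27, adjusted p = 0.00235) and Ndufs8 (86.0, 79.7 and 99.3 against 71.9, 74.2 and 69.6, log2 change 0.30, adjusted p = 0.00321) rose. Ndufs7, at 88.9, 82.4 and 86.7 CPM against 74.3, 82.4 and 79.9, was not called (0.13, adjusted p = 0.295).

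Of the accessory subunits of the membrane arm, 19 of 20 were higher in P131S RNA, with a median log2 change of 0.36. Ndufs5 was not called. Ndufa1, a small X-linked subunit, was 117, 113 and 114 CPM in P131S and 70.4, 72 and 68.4 in WT (log2 change 0.71, SE 0.09, adjusted p = 2.29e-06). Ndufb4 was 77.5, 72 and 91.3 CPM against 54.7, 57.2 and 50.4 (0.57, SE 0.09, adjusted p = 2.42e-05), and Ndufb10, a subunit on the intermembrane-space side, 92.0, 92.8 and 114 against 65.9, 74.0 and 63.6 (0.55, SE 0.08, adjusted p = 1.26e-05). None of these 3 genes had overlapping clones. The division of reads between Ndufb4 and its copy Ndufb4c is uncertain, since their fractional RNA counts complemented each other in 23 libraries, with Ndufb4c holding 13.7% of their sum.

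Of the 10 accessory subunits of the peripheral arm, 6 were higher and 1 lower, with a median of 0.25. Ndufa5 had the largest rise, from 63.8, 72.8 and 62.7 CPM in WT to 92.6, 87.7 and 119 in P131S (log2 change 0.59, SE 0.10, adjusted p = 6.32e-05). Ndufv3, which sits beside the NADH-binding core, was the only member called lower than WT, with 106, 90.5 and 61.1 CPM against 126, 118 and 123 (-0.51, SE 0.12, adjusted p = 0.00183). Its 3 P131S clones were spread more widely than those of WT, clone 20 being the lowest, and the call was lost when the fit held only the groups compared (adjusted p = 0.0622). Ndufa6, Ndufa9 and Ndufs4 were not called.

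Of the 8 assembly factors 4 rose, and they included the largest changes. Ndufaf4, which takes part in early assembly of the peripheral arm, was 51.0, 53.8 and 89.6 CPM in P131S and 31.5, 34.3 and 31.0 in WT (log2 change 1.01, SE 0.17, adjusted p = 8.52e-05). Clone 20 was well above the other clones, and without it the change was 0.69 and still called. Ndufaf8, a partner of the assembly factor Ndufaf5, was 30.4, 31.9 and 34.3 CPM against 17.4, 20.5 and 18.5 (0.78, SE 0.08, adjusted p = 5.82e-07). Ndufaf2, a late assembly factor, was 21.4, 19.4 and 29.8 CPM against 16.0, 15.4 and 15.5 (0.59, SE 0.11, adjusted p = 0.000269). Each of these factors was above WT in all 3 clones, whereas Ndufaf1, Ndufaf3, Ndufaf5 and Ndufaf7 were not called. The cytochrome c oxidase subunit Ndufa4 rose as well, from 236, 242 and 221 CPM to 318, 321 and 393 (0.56, SE 0.09, adjusted p = 3.35e-05).

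The same genes were compared in RNA of Rps15 H137Y, a second mutation of the same ribosomal protein, against the same WT libraries. Here 6 members were higher and 12 lower, 38.3% of the 47 against 41.0% of all genes, so that the share called was near the background. Their median log2 change was -0.04, against 0.01 over all genes. The clone medians were -0.03 in clone 16, -0.18 in clone 6 and 0.01 in clone 2, and the number lower was 7 without clone 6 and 6 without WT clone 2. The lower genes were 1 of 7 core subunits, 4 of 10 peripheral and 4 of 20 membrane-arm accessory subunits, and 3 of 8 assembly factors. They are to be read against 2557 of all 12814 genes called lower.

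Ndufv3 was lower in H137Y too, at 81.4, 84.3 and 89.5 CPM against 126, 118 and 123 in WT (log2 change -0.53, SE 0.12, adjusted p = 0.00181). Ndufs4, an accessory subunit whose loss causes severe complex I deficiency in mice, was 72.3, 76.7 and 80.7 CPM against 101, 106 and 100.4 (-0.42, SE 0.09, adjusted p = 0.00121). The assembly factors Ndufaf3 (12.2, 14.2 and 11.1 CPM against 16.6, 17.6 and 17, log2 change -0.45, adjusted p = 0.00378) and Ndufaf7, a methyltransferase (17.2, 20.7 and 17.6 against 22.3, 23.7 and 24.5, log2 change -0.35, adjusted p = 0.00204), were below WT in every clone. Ndufs5 was 70.9, 58.4 and 70.1 CPM against 85.7, 83.3 and 81.5 (-0.33, adjusted p = 0.00935), a call lost without H137Y clone 6, where its RNA was lowest. The core subunit Ndufs7 (72.3, 49.9 and 71.1 CPM against 74.3, 82.4 and 79.9, log2 change -0.29, adjusted p = 0.0181) and the membrane-arm subunit Ndufb2 (32.5, 24.5 and 36.1 against 37.7, 38.2 and 39.2, log2 change -0.31, adjusted p = 0.0428) also lost their calls without that clone. For Ndufaf5, a hydroxylase that acts on Ndufs7, the values were 8.61, 10.3 and 10.9 CPM against 12.7, 12.9 and 11.7 (-0.33, adjusted p = 0.0329), a call lost in 5 of 11 settings.

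The members higher in H137Y RNA included the pair of assembly factors with the largest rise in P131S. Ndufaf4 was 49.4, 40.1 and 61.1 CPM against 31.5, 34.3 and 31.0 in WT (log2 change 0.64, SE 0.17, adjusted p = 0.00506), and Ndufaf8 was 24.3, 25.4 and 23.6 against 17.4, 20.5 and 18.5 (0.38, SE 0.08, adjusted p = 0.0013). Ndufa10, a membrane-arm subunit, was 194, 212 and 210.0 CPM against 162, 174 and 164 (0.30, SE 0.06, adjusted p = 0.000558), Ndufaf1 was 28.4, 30.9 and 30.2 against 23.9, 26.0 and 25.0 (0.26, adjusted p = 0.0126), and Ndufb8 was 271, 286 and 269 against 247, 255 and 240.1 (0.16, adjusted p = 0.04). Clones of H137Y and WT did not overlap for any of these 5 genes, but the call of Ndufb8 was lost in 6 of 11 settings and that of Ndufaf1 without WT clone 3. Ndufa1, named here after its values were seen, was called with overlapping clones, at 85.1, 70.9 and 97.7 CPM against 70.4, 72 and 68.4 (0.27, adjusted p = 0.0172). The core subunits Ndufs1 (127, 110.3 and 127 CPM, adjusted p = 0.412), Ndufv1 (163, 179 and 166, adjusted p = 0.815), Ndufv2 (117, 118 and 125, adjusted p = 0.616), Ndufs3 (72.1, 62.9 and 75.9, adjusted p = 0.248) and Ndufs8 (72.6, 61.5 and 69.1, adjusted p = 0.402) were not called in H137Y RNA.

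**Figure D2:**
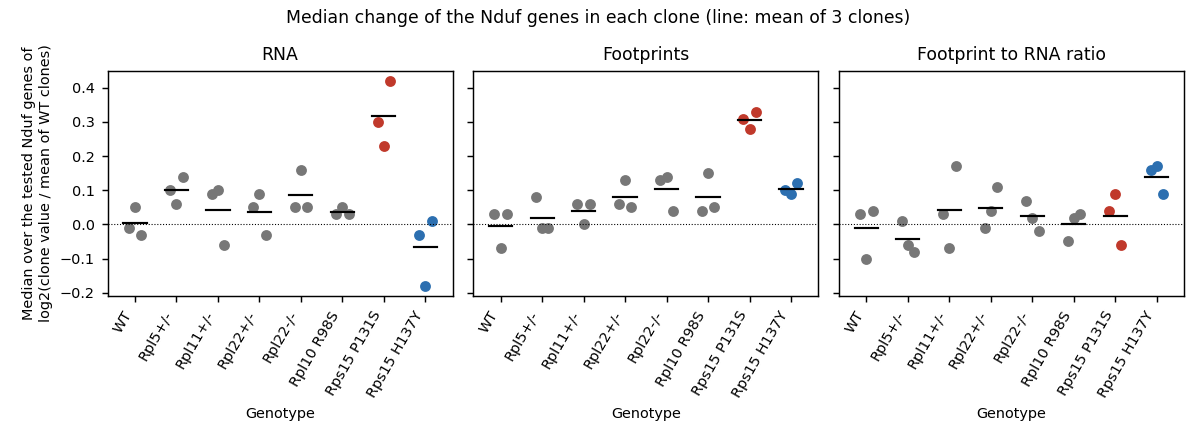
Median over the tested Nduf genes of the log2 change against the WT mean in each clone (points, 3 per genotype, with the mean as a line) for RNA, footprints and their ratio. In RNA the 3 P131S clones lie at 0.23 to 0.42, above the clones of every other genotype, and H137Y clone 6 is lowest at -0.18, while in footprints the P131S clones lie at 0.28 to 0.33 and the H137Y clones at 0.09 to 0.12.

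A direct test of P131S against H137Y asked whether the mutations differ. In RNA 40 of the 47 members were higher in P131S and 0 lower (85.1%, against 25.2% of all genes called and 12.6% called higher), with a median log2 difference of 0.37 over the members and -0.02 over all genes. Of the 47, 38 were above in all clones, against 14.6% of all genes. By role the 40 called genes included 6 core subunits, 9 of 10 peripheral and 18 of 20 membrane-arm accessory subunits, and 5 of 8 assembly factors. The calls rest on a spread shared with the other genotypes: when only the libraries of the P131S and H137Y clones were fitted, 3 members were called, at a setting that called 378 of 12069 genes in all. Without P131S clone 20 the count was 30.

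Ndufa5 differed most, with 92.6, 87.7 and 119 CPM in P131S and 53.8, 61.6 and 65.2 in H137Y (log2 difference 0.73, SE 0.10, adjusted p = 2.54e-05). Ndufc2, a membrane-arm subunit, was 118, 100.3 and 130.9 CPM against 78.5, 72.1 and 80.0 (0.60, SE 0.08, adjusted p = 3.38e-05). Both calls held in all 11 alternative settings, and the clones did not overlap. For Ndufc2, Ndufc1, Ndufb2 and the peripheral-arm subunit Ndufa2, RNA was called higher than WT in P131S and lower than WT in H137Y. All 4 lower calls in H137Y were lost without H137Y clone 6 and without WT clone 2, and the higher calls of Ndufb2 and Ndufc1 in P131S were lost without P131S clone 20. The direct difference was 0.52 for Ndufc1 (72.8, 74.7 and 81.3 CPM in P131S against 49.7, 46.4 and 63.7 in H137Y, adjusted p = 0.000238). It was 0.62 for Ndufb2 (46.4, 41.8 and 55.3 CPM against 32.5, 24.5 and 36.1, adjusted p = 0.000683) and 0.50 for Ndufa2 (141, 136.8 and 148 CPM against 105, 85.5 and 112, adjusted p = 0.000143). Groups did not overlap for any of the 3 genes, and all 3 calls were lost when only the groups compared were fitted. Ndufa4 differed by 0.58 (318, 321 and 393 CPM against 233, 202 and 257, adjusted p = 0.0001), Ndufaf6, which acts in assembly of the peripheral arm, by 0.58 (11.4, 10.3 and 13.8 against 8.93, 7.03 and 7.75, adjusted p = 0.00638) and Ndufb4c by 0.67 (11.7, 9.66 and 13.9 against 6.21, 8.81 and 7.25, adjusted p = 0.0268). Reads of Ndufb4c are divided with Ndufb4 as above.

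**Figure D3:**
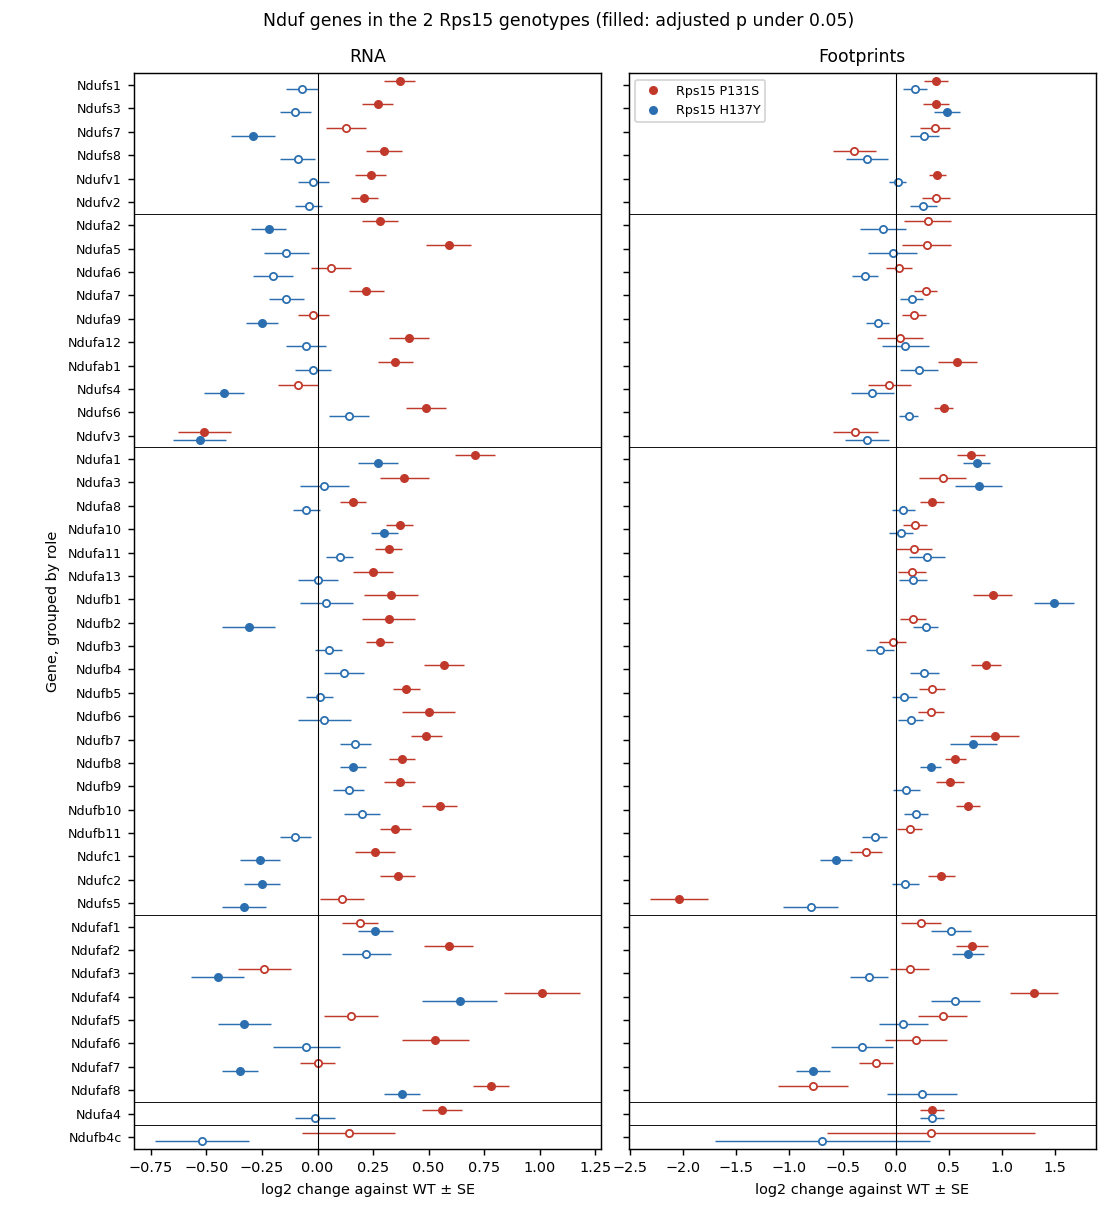
Log2 change against WT with its standard error for Nduf genes tested in both assays, grouped by role, in Rps15 P131S (red) and Rps15 H137Y (blue), in RNA and footprints, filled where the adjusted p was under 0.05. In RNA most red points lie to the right of the blue ones, and Ndufs5 stands apart in footprints at -2.04 in P131S.

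Footprints were then compared in the same way. In P131S 17 of the 48 members tested were higher and 1, Ndufs5, was lower, 37.5% called against 16.7% of all 16217 genes, with a median log2 change of 0.32 against -0.04 over all genes. The clone medians were 0.31, 0.28 and 0.33. Higher genes were 3 core subunits, 2 of 10 peripheral and 9 of 20 membrane-arm accessory subunits, 2 of 8 assembly factors and Ndufa4. All 17 were also higher in RNA, and a further 18 members were higher in RNA only. The count of 18 calls was 12 without P131S clone 20 and 13 without WT clone 3.

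Ndufaf4 footprints were 33, 31.6 and 55.2 CPM in P131S and 15.2, 19.3 and 14.2 in WT (log2 change 1.3, SE 0.23, adjusted p = 0.000712). Ndufb4 was 126, 113 and 159 CPM against 57.6, 81.3 and 81.6 (0.85, SE 0.14, adjusted p = 0.000451), and Ndufb10 was 169, 158 and 206 against 108, 107 and 117 (0.68, SE 0.11, adjusted p = 0.000466). These 3 genes, which also rose in RNA, had no overlap between the groups. Ndufb1, one of the smallest membrane-arm subunits, was 178, 181 and 218 CPM against 93.8, 96.2 and 117 (0.91, SE 0.18, adjusted p = 0.00187). Ndufaf2 was 44.8, 44.4 and 59.7 CPM against 28.7, 32.7 and 29.2 (0.72, adjusted p = 0.00222), and Ndufa1 was 120.1, 116 and 98.4 against 68.0, 61.6 and 74.3 (0.71, adjusted p = 0.000657). Ndufab1, the mitochondrial acyl carrier protein, was 267, 296 and 243 CPM against 151, 194 and 193 (0.58, adjusted p = 0.0272), a call lost without P131S clone 63 or WT clone 3. Ndufb7, at 131.2, 117 and 182 CPM against 96.0, 58.3 and 71.4 (0.93, adjusted p = 0.00674), was not called without P131S clone 20 (adjusted p = 0.0541).

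For the core subunits, footprints rose in P131S for Ndufs1 (354, 357 and 355 CPM against 255, 282 and 284, log2 change 0.38, adjusted p = 0.0184), Ndufv1 (292, 328 and 333 against 249.9, 245 and 232, log2 change 0.39, adjusted p = 0.00317) and Ndufs3 (174, 150.3 and 191 against 136.8, 117 and 141, log2 change 0.38, adjusted p = 0.03). The groups were separate for all 3, but none of the 3 was called without the filter on low counts. The call of Ndufs1 was also lost without P131S clone 20 or WT clone 3. That of Ndufs3 was also lost without P131S clone 20 or WT clone 2 and with only the groups compared. Ndufv2 (213, 192 and 208 CPM against 161, 155 and 154, adjusted p = 0.0527) and Ndufs7 (130.3, 106 and 131.3 against 110.3, 76.1 and 97.7, adjusted p = 0.0855) missed the threshold. Ndufs8 was 159, 141 and 176 CPM against 282, 163 and 180.4 (-0.39, adjusted p = 0.19), where 1 WT clone stood far above the rest.

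In H137Y footprints 7 members were higher and 2 lower, 18.8% of 48 against 11.7% of all genes, with a median of 0.09 against 0.00. Ndufb1 had the largest rise, to 266, 277 and 322 CPM from 93.8, 96.2 and 117 in WT (log2 change 1.49, SE 0.19, adjusted p = 3.94e-05), with no overlap. Ndufa1 was 99.8, 127 and 118 CPM against 68.0, 61.6 and 74.3 (0.76, SE 0.13, adjusted p = 0.00061), Ndufaf2 48.6, 43.5 and 53.0 against 28.7, 32.7 and 29.2 (0.68, adjusted p = 0.00506) and Ndufs3 177, 191 and 184 against 136.8, 117 and 141 (0.48, adjusted p = 0.0112). The H137Y clones were above WT throughout for these genes, but the call of Ndufs3 was lost without WT clone 2 (adjusted p = 0.0604, edgeR). Ndufa3 (170.3, 173 and 229 CPM against 116, 84.9 and 133, adjusted p = 0.0253), Ndufb7 (125, 141 and 109.6 against 96.0, 58.3 and 71.4, adjusted p = 0.0379) and Ndufb8 (197, 177 and 203 against 168, 142 and 149.7, adjusted p = 0.0367) were called but lost their calls in 4 to 6 of 11 alternative settings. Lower were Ndufaf7, with 22.7, 21.8 and 25.3 CPM against 33, 39.9 and 46.8 (-0.78, SE 0.16, adjusted p = 0.00327), and Ndufc1, with 35, 47.8 and 30.4 against 59.2, 54.7 and 52.2 (-0.56, adjusted p = 0.0195), a call lost in 5 of the 11 settings. Both were lower in RNA as well, whereas the other 10 members lower in H137Y RNA were not called in footprints. The core subunits Ndufs1 (302, 273 and 356 CPM, adjusted p = 0.307), Ndufv1 (256, 231 and 249, adjusted p = 0.926), Ndufv2 (181, 179 and 204, adjusted p = 0.22), Ndufs7 (105, 104 and 134, adjusted p = 0.247) and Ndufs8 (175, 157 and 185, adjusted p = 0.429) were not called in H137Y footprints.

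The direct test in footprints called 5 members higher in P131S than in H137Y and 1 lower (12.5%, against 4.17% of all genes), with a median difference of 0.20 against -0.01. The 5 were Ndufaf7 (31.1, 35.5 and 38.4 CPM against 22.7, 21.8 and 25.3, adjusted p = 0.0405), Ndufb4 (126, 113 and 159 against 86.4, 87.1 and 92.1, adjusted p = 0.022), Ndufb10 (169, 158 and 206 against 127, 125 and 128, adjusted p = 0.0177), Ndufv1 (292, 328 and 333 against 256, 231 and 249, adjusted p = 0.0151) and Ndufs6 (138, 138 and 143 against 125, 98.7 and 109.9, adjusted p = 0.0494). All 5 had separate groups. Without P131S clone 20 the count fell to 0, and without H137Y clone 6 to 1.

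Ndufs5, an accessory subunit of the membrane arm on the intermembrane-space side, had the largest change in the footprint to RNA ratio among the members called there. Larger changes, up to 6.09 in H137Y, were seen only in members that were not called. Its RNA was 92.3, 84.6 and 93.6 CPM in P131S against 85.7, 83.3 and 81.5 in WT (log2 change 0.11, adjusted p = 0.362). Its footprints were 136.9, 104 and 114 CPM in P131S against 506, 352 and 597 in WT, a 4.1-fold lower level (-2.04, SE 0.27, adjusted p = 7.42e-05). The log2 ratio of footprint to RNA CPM was 0.57, 0.30 and 0.28 in P131S and 2.56, 2.08 and 2.87 in WT, a difference of -2.17 (SE 0.29, adjusted p = 1.98e-05) that was called in all 12 alternative settings. In H137Y the footprints were 228, 279 and 327 CPM (-0.80, adjusted p = 0.0503) and the log2 ratios 1.69, 2.26 and 2.22 (-0.49, adjusted p = 0.48). P131S against H137Y gave a ratio difference of -1.68 (SE 0.29, adjusted p = 0.00192), again called in all 12 settings, with RNA higher (0.44, adjusted p = 0.00216) and footprints lower (-1.23, adjusted p = 0.0104) in P131S. That makes Ndufs5 the only member called in opposite directions in the assays in the comparison of P131S with H137Y. The footprint difference lost its call without P131S clone 20 or 63, with adjusted p up to 0.0524. The RNA difference lost its call when only the groups compared were fitted (adjusted p = 0.0701, edgeR). Elsewhere the lowest Ndufs5 footprint levels were in Rpl22-/-, at 156, 406 and 277 CPM and log2 ratios of 0.94, 2.17 and 1.61. Fractional footprint counts of Ndufs5 complemented those of the BC002163 row (named after its values were seen) in all 24 libraries, but that row held only 0.0308% of their sum.

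At the level of the ratio, a measure of translational efficiency, few members were called in any genotype. In P131S 0 were higher and 2 lower of 49 (4.08%, against 3.14% of all 16568 genes), with a median of 0.03. Besides Ndufs5 the lower gene was Ndufaf8, with log2 ratios of -1.40, -1.78 and -1.71 in P131S against 0.23, -0.45 and 0.00 in WT (-1.58, SE 0.35, adjusted p = 0.00619). Its RNA had risen, while its footprints were 11.6, 9.3 and 10.5 CPM against 20.4, 15.0 and 18.5 (-0.78, adjusted p = 0.118). The ratio call was lost without WT clone 1 or WT clone 3, with adjusted p up to 0.0788.

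In H137Y 2 members had a higher ratio and 0 a lower one (4.08%, against 2.76%), with a median of 0.12. Ndufb1, whose RNA was 140.1, 99.5 and 168 CPM against 138, 139 and 121 in WT (0.04, adjusted p = 0.835), had log2 ratios of 0.93, 1.48 and 0.94 against -0.55, -0.53 and -0.04 (1.44, SE 0.23, adjusted p = 0.000164), called in all 12 alternative settings. Ndufs3 had log2 ratios of 1.29, 1.60 and 1.28 against 0.91, 0.58 and 0.90 (0.57, SE 0.13, adjusted p = 0.0105), a call lost in 4 of the 12. When the clone was added to the model, so that libraries from a common lysate were paired, 5 members were called in H137Y. In all, 634 of 16568 genes were called there. The 5 were Ndufb1, Ndufs3, Ndufa3 (0.76, adjusted p = 0.0363), Ndufb2 (0.59, adjusted p = 0.019) and Ndufs7 (0.57, adjusted p = 0.0449). The block likewise brought Ndufs8 below the threshold in P131S (-0.67, adjusted p = 0.0455, against -0.71 and 0.0574 without it).

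Between P131S and H137Y the ratio was lower in P131S for 4 members (8.16%, against 0.682% of all genes). Besides Ndufs5 these were Ndufaf8 (-1.43, adjusted p = 0.0411), with log2 ratios of -1.40, -1.78 and -1.71 against -0.28, 0.01 and -0.34, and Ndufb2 (-0.75, adjusted p = 0.0244), with 1.51, 1.49 and 1.36 against 2.10, 2.47 and 2.06. The fourth was Ndufa4 (-0.58, adjusted p = 0.0442), with 0.56, 0.41 and -0.08 against 0.76, 1.09 and 0.78. Groups were separate for all 4 genes, but the calls of Ndufaf8, Ndufb2 and Ndufa4 were lost in 9, 4 and 8 of 12 alternative settings. With the clone as a block Ndufa4 was not called (adjusted p = 0.071) and Ndufb1 was (-0.91, adjusted p = 0.0189, against 0.0505 without it).

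**Figure D4:**
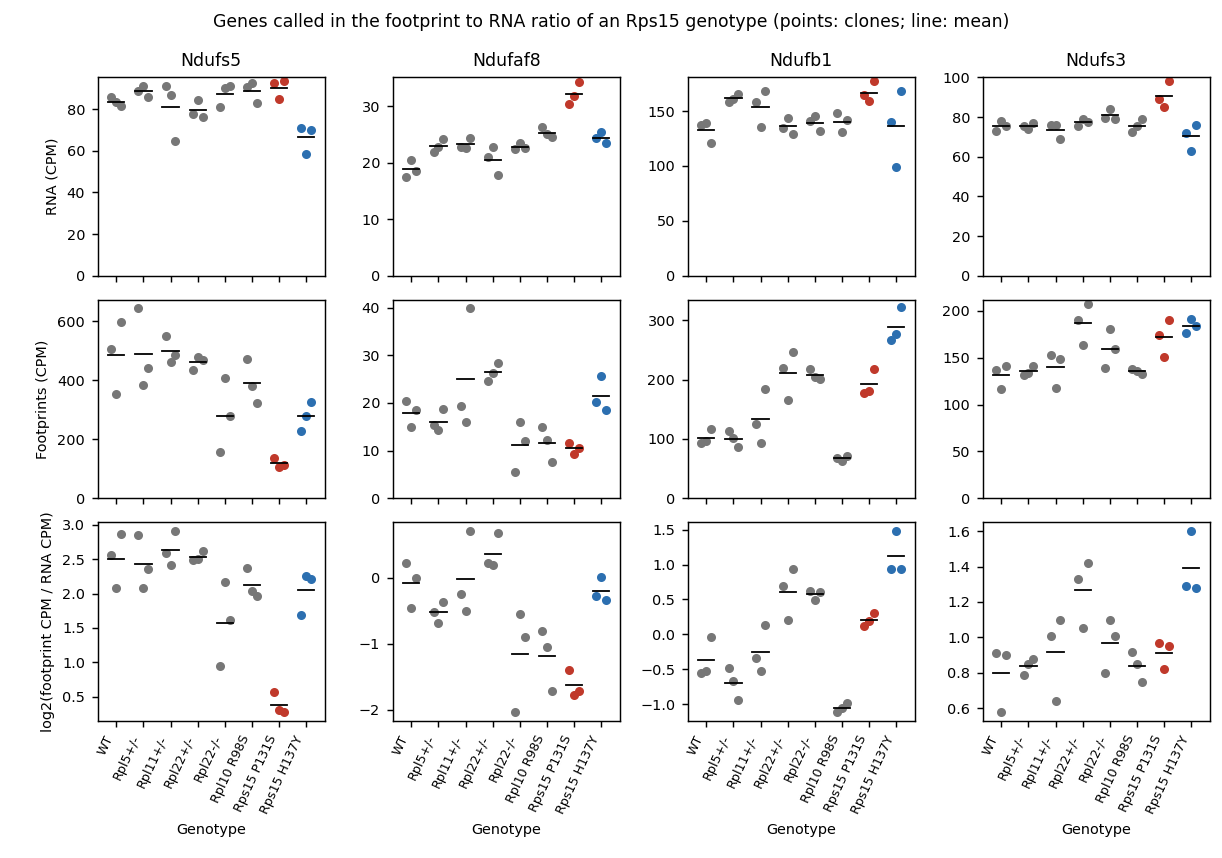
RNA level, footprint level (both in CPM) and log2 ratio of Ndufs5, Ndufaf8, Ndufb1 and Ndufs3 in every clone of the 8 genotypes (points, with the mean as a line). For Ndufs5 the 3 P131S clones have the lowest footprint levels of all clones (104 to 136.9 CPM) while 1 of them has the highest RNA level (93.6 CPM), and for Ndufb1 the 3 H137Y clones have the highest footprint levels (266 to 322 CPM).

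The Rpl mutants were compared with WT in the same way. In Rpl11+/- RNA 3 members were higher and 0 lower, against 11.8% of all genes called, with a median of 0.03. They were Ndufa1 (88.4, 81.9 and 95.1 CPM against 70.4, 72 and 68.4 in WT, log2 change 0.33, adjusted p = 0.0167), Ndufaf8 (22.8, 22.7 and 24.5 against 17.4, 20.5 and 18.5, log2 change 0.31, adjusted p = 0.0215) and Ndufb3 (77.6, 78.2 and 77.9 against 68.9, 70.7 and 65.6, log2 change 0.19, adjusted p = 0.0411). The groups were separate, but each call was lost in at least 3 of 11 alternative settings, and no member was called without Rpl11+/- clone 22, WT clone 1 or WT clone 3. In Rpl10 R98S RNA 5 members were higher and 0 lower, against 12.9% of all genes, with a median of 0.03. Ndufaf8 was 26.3, 25.1 and 24.6 CPM (0.43, adjusted p = 0.00233) and was called in all 11 settings. Ndufaf4 (45.8, 47.8 and 46.2 CPM against 31.5, 34.3 and 31.0, log2 change 0.53, adjusted p = 0.044), Ndufaf6 (12.4, 12.4 and 8.96 against 7.95, 8.6 and 8.10, log2 change 0.46, adjusted p = 0.0429), Ndufb4 (70.6, 65.1 and 69.3 against 54.7, 57.2 and 50.4, log2 change 0.34, adjusted p = 0.0142) and Ndufb10 (83.4, 86.2 and 81.7 against 65.9, 74.0 and 63.6, log2 change 0.30, adjusted p = 0.0151) were above WT in every clone but lost their calls in 2 to 7 settings, and between 1 and 4 members were called with any 1 clone left out. In Rpl5+/-, Rpl22+/- and Rpl22-/- RNA edgeR called 0 members, against 1.04%, 3.9% and 5.27% of all genes, with medians of 0.12, 0.03 and 0.07. At an unadjusted p under 0.05 there were 16, 2 and 10 of 47 members, against 1897, 1982 and 2312 of all 12814 genes. DESeq2 called 2, 0 and 1, against 387, 708 and 903 of all genes. In Rpl5+/- all 3 clones lay above all WT clones for 22 of the 47 members, against 16.6% of all genes. When only the groups compared were fitted, 16 members were higher and 2 lower in Rpl5+/- RNA (1868 of 11814 genes called in all), and 11 were higher and 4 lower in Rpl10 R98S RNA (4216 of 11917).

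In footprints of the Rpl mutants 1 gene was called. Ndufb1 was higher in Rpl22+/-, with 219, 166 and 246 CPM against 93.8, 96.2 and 117 in WT (log2 change 1.04, SE 0.18, adjusted p = 0.0204, against 0.253% of all genes called), and in Rpl22-/-, with 218, 204 and 200.4 CPM (1.02, SE 0.18, adjusted p = 0.0256, against 0.105%). Its RNA was 135, 143 and 129 CPM in Rpl22+/- and 141, 145 and 132 in Rpl22-/-, within the range of the other genotypes. Neither footprint call held when any 1 WT clone was left out, and in Rpl22-/- none held without clone 30 or any other mutant clone. The Rpl22+/- ratio of Ndufb1 was called with the clone as a block (0.98, adjusted p = 0.0413) and not without it (adjusted p = 0.128). The lowest Ndufb1 footprint levels of all clones were in Rpl10 R98S (68.7, 62.9 and 71.3 CPM), a difference that was not called. In Rpl5+/-, Rpl11+/- and Rpl10 R98S footprints edgeR called 0 members, against 0.0123%, 0.074% and 1.62% of all genes. At an unadjusted p under 0.05 there were 0, 4 and 11 of 48, against 667, 1601 and 2209 of all 16217 genes. DESeq2 called 0, 0 and 3, against 46, 240 and 738 of all genes. No ratio was called in these 5 genotypes, where 0.0% (Rpl5+/-), 0.0% (Rpl11+/-), 0.00604% (Rpl22+/-), 0.0121% (Rpl22-/-) and 0.217% (Rpl10 R98S) of all genes were. In the same order 1, 1, 8, 7 and 5 of 49 members had an unadjusted p under 0.05. Among all 16568 genes 450, 637, 1320, 832 and 1246 did.

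Other genes of the respiratory chain are given for comparison, to be read against the shares of all genes called. Those shares were 47.0% and 41.0% in RNA and 16.7% and 11.7% in footprints of P131S and H137Y. For P131S against H137Y in RNA the share was 25.2%. Of 43 nuclear genes of complexes II to V tested in RNA, 38 were higher and 1 lower in P131S (median log2 change 0.42), 5 higher and 2 lower in H137Y (median 0.04), and 39 higher and 1 lower between P131S and H137Y (median 0.41). In footprints 21 of 43 were higher in P131S (median 0.40) and 6 were higher and 1 lower in H137Y (median 0.14). Of 78 mitochondrial ribosomal protein genes, 42 were higher and 2 lower in P131S RNA (median 0.23) and 11 higher and 16 lower in H137Y (median -0.02). Whether the Nduf genes differ from these lists was not tested. The 7 complex I subunits encoded in mitochondrial DNA were higher in RNA for 6 of 7 in both P131S (median 0.70) and H137Y (median 0.92). Their summed RNA counts, as a share of the TMM-scaled library size, were 0.591% ± 0.014 (SD, n = 3) in WT. They were 0.938% ± 0.107 in P131S and 1.14% ± 0.387 in H137Y, with H137Y clone 6 highest at 1.58%. The clones of the other 5 genotypes, at 0.706% to 0.832%, were all above the WT clones (0.579% to 0.607%) as well. In the direct test 2 of the 7 were lower in P131S (median -0.30). This share, 28.6%, was near the 25.2% of all genes called.

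Of 12 complex I genes without an Nduf name, 3 were higher and 2 lower in P131S RNA, and 1 was higher and 3 were lower in H137Y RNA. These shares, 41.7% and 33.3%, were no larger than those of all genes. Tmem126b, an assembly factor of the membrane arm, fell in both, with log2 changes of -0.78 (adjusted p = 1.42e-05) and -0.79 (adjusted p = 1.44e-05). Tmem186, which acts in the same assembly complex, changed by -0.72 (adjusted p = 7.13e-05) in P131S and -0.61 (adjusted p = 0.000443) in H137Y. Ecsit, another factor of that complex, rose in P131S (0.51, adjusted p = 0.000196), as did Dmac1 (0.36, adjusted p = 0.000304), and Foxred1 rose in H137Y (0.26, adjusted p = 0.0459). Of 9 tested regulators of respiratory gene transcription, 4 were higher and 3 lower in P131S RNA (77.8%, against 47.0% of all genes). In H137Y RNA 1 was higher and 3 lower (44.4%, against 41.0%), a share near that of all genes. In footprints 0 were called in either, against 16.7% and 11.7% of all genes. At an unadjusted p under 0.05 there were 2 and 1, against 4768 and 4089 of all 16217 genes.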

How the data were processed

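The authors deposited a table of estimated counts per Ensembl gene for all 48 libraries, not normalized, and the submitters' processing notes name STAR 2.6.1d, Salmon 1.4.0, DESeq2 1.30 and build GRCm38 without roles. The feature counted and the treatment of multi-mapping reads are not given in the sources used here. Values were rounded to whole counts and tested with edgeR 4.0.16 (quasi-likelihood, R 4.3.3). Genes passed filterByExpr (minimum count 10, minimum total 15), and library sizes were scaled within each assay by trimmed means (TMM), giving factors between 0.913 and 1.061 for RNA and between 0.877 and 1.079 for footprints. For each assay, 1 model was fitted to its 24 libraries with the genotypes as groups. The ratio of footprints to RNA was tested as a difference of differences in a model of the 48 libraries in 16 groups. RNA, footprints and the ratio were each tested in 8 contrasts: every mutant genotype with WT, whose libraries are thus shared by 7 of them, and Rps15 P131S with Rps15 H137Y. Tests were two-sided, with p-values adjusted by the Benjamini-Hochberg method over all genes tested and a threshold of 0.05. SE is a standard error of the log2 change, derived as its absolute value divided by the square root of the quasi-likelihood F statistic. Values per clone are CPM, counts divided by the TMM-scaled library size, and the ratio per clone is log2 of footprint over RNA CPM. Levels are not comparable between genes, since no lengths were used.

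Clone numbers occur in both assays, and the lysate of a clone was divided between them. Deviations from the genotype mean correlated at 0.226 to 0.696 between the libraries of 1 clone and at -0.601 to 0.054 between different clones of a genotype, so that the numbers pair the samples. Blocking on the clone was therefore an alternative for the ratio, and its values stand beside the results it changed. The other alternatives were DESeq2 1.42.0, limma voom (limma 3.58.1), relative log expression size factors, no filter on low counts, only the groups compared, and each clone left out in turn.

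Fractional counts can arise where reads are divided between similar rows. In footprints of Ndufa4, Ndufa4l2, Ndufa7, Ndufs3, Ndufb3, Ndufb4, Ndufb4c and Ndufb8 most libraries had such counts with no single complementary row found (tolerance 0.004). The same held in RNA of Ndufab1 and Ndufb9. These levels are uncertain to that extent. Genes were named by a rule: the core subunits in all Rps15 comparisons (values of 1 of them are not reported here), and per comparison and level up to 5 members in each direction (8 for Rps15) with the largest change among those called whose clones do not overlap. Members named outside the rule, such as those called only with the clone as a block, were chosen after their values were seen. Members and lists were chosen with earlier results of these data known. The scripts were tested on simulated data.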

Additional observations from a re-analysis of the deposited data

Results flagged for a closer look

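In RNA, 4 members were called in opposite directions against WT in the Rps15 genotypes, higher in P131S and lower in H137Y, and differed in the direct test, 8.51% of the 47 against 0.351% of all genes. Both comparisons share the WT libraries. The log2 difference, P131S minus H137Y, was 0.50 for Ndufa2, 0.62 for Ndufb2, 0.52 for Ndufc1 and 0.60 for Ndufc2. All 4 lower calls in H137Y were lost without H137Y clone 6 and without WT clone 2, and the higher calls of Ndufb2 and Ndufc1 in P131S were lost without P131S clone 20. P131S clones were above H137Y clones in 3 of 3 for each gene. The difference of Ndufc2 held in all 11 alternative settings, while those of Ndufa2, Ndufb2 and Ndufc1 were not called when only the groups compared were fitted, with adjusted p = 0.0638, 0.0839 and 0.0765 (edgeR).

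The pseudogene row Ndufa12-ps, left out of the members by its suffix, held counts in every library, at least 57.1 in RNA and at least 25.3 in footprints. Its highest footprint count was 2096, in an Rpl22-/- library, where its level reached 35.7 CPM. Its fractional counts complemented those of Ndufa12 in 24 RNA and 23 footprint libraries, and it held 4.59% of the sum of both rows in RNA and 1.66% in footprints.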

How the results depend on the processing

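The number of members called in RNA in Rps15 P131S was 33 to 37 under the other settings and 29 to 37 with a clone left out, and 28 of the 36 calls held in all 11 settings, as did 9 of the 18 in footprints. Counts moved by more than 1.5 times as follows, with the number of all genes called under the same setting in brackets. With only the groups compared, RNA had 18 in Rpl5+/- (1868 of 11814) and 2 in Rpl22-/- (1436 of 11928). It had 15 in Rpl10 R98S (4216 of 11917) and 3 in P131S against H137Y (378 of 12069). Footprints had 0 in Rpl22+/- (3 of 13636), 3 in Rpl10 R98S (689 of 14124) and 1 in P131S against H137Y (34 of 14008). The ratio had 1 each in Rpl22-/- (14 of 14925), Rpl10 R98S (179 of 15118), H137Y (275 of 14670) and P131S against H137Y (3 of 14624). DESeq2 called 2 in Rpl5+/- RNA (387 of 12814), 5 in Rpl11+/- RNA (1909) and 1 in Rpl22-/- RNA (903). In footprints it called 4 in Rpl22+/- (406 of 16217), 2 in Rpl22-/- (146), 3 in Rpl10 R98S (738) and 10 in P131S against H137Y (1309). In the ratio it called 2 in Rpl22+/- (90 of 16568), 1 in Rpl22-/- (56), 4 in P131S (914) and 5 in H137Y (765). Without the filter, RNA had 1 in Rpl11+/- (1066 of 22437) and 3 in Rpl10 R98S (1198 of 22437). Footprints had 2 in Rpl22+/- (72 of 38392), with a members' median of 0.00. The ratio had 1 in H137Y (352 of 39666) and 2 in P131S against H137Y (85 of 39666). limma voom called 1 in Rpl10 R98S footprints (396 of 16217). The replicate block, with the clone as the block, called 1 ratio in Rpl22+/- (10 of 16568) and 5 in H137Y (634 of 16568). It changed no call other than those given with the results. With a clone left out, counts in RNA were 0 to 4 in Rpl11+/- (598 to 2184) and 1 to 4 in Rpl10 R98S (791 to 1087). In footprints they were 0 to 1 in Rpl11+/- (2 to 186), 0 to 3 in Rpl22+/- (5 to 252) and 0 in each case in Rpl22-/- (6 to 10). They were 5 to 8 in H137Y (1092 to 1438), with a members' median of 0.08 to 0.16. For P131S against H137Y they were 0 to 5 (324 to 817), with a members' median of 0.18 to 0.25. In the ratio they were 0 to 3 in Rpl22+/- (0 to 153) and 1 to 2 in P131S (218 to 421). They were 1 to 4 in H137Y (184 to 374) and 1 to 2 in P131S against H137Y (29 to 141). Uncalled core subunits changed sign: Ndufv1 RNA in H137Y to 0.00 without H137Y clone 16 or WT clone 2 (-0.07 to 0.00 over the clones left out), Ndufv1 footprints in H137Y to -0.03 without the filter and to -0.01 with only the groups compared, without H137Y clone 16 and without WT clone 1 (-0.01 to 0.07), and Ndufs8 footprints in H137Y from -0.27 to 0.01 without WT clone 3 (-0.41 to 0.01). The causes were not tested. With 3 clones a group, fewer of all genes were called in footprints than in RNA in each of the 8 comparisons, and a missed threshold does not show that a gene did not differ.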

Other observations

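Apart from Ndufa4l2, Ndufb11b and Ndufb4c, Ndufaf8 had the largest ratio of highest to lowest footprint level over the 24 libraries, from 5.52 to 39.9 CPM, while its RNA lay between 17.4 and 34.3 CPM. In 1 of the Rpl22-/- clones its footprints were 5.52 CPM. Ndufb4c, whose RNA was 6.21 to 13.9 CPM, had footprints of at most 1.83 CPM.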
